A study of Homo sapiens with 6 samples.

Results

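The genes described here write, remove and read cytosine methylation: the DNA methyltransferases DNMT1, DNMT3A and DNMT3B, the dioxygenases TET2 and TET3, the chromatin remodeller HELLS and the methyl-CpG-binding protein MBD2. They were chosen by name, and all 7 were found by their Ensembl identifiers among the 30099 genes listed for each library. The cells were Pep2-E3, which the labels give as MDA-MB-231 cells of the genotype Pep-E3, set against MDA-MB-231 itself, an established human breast cancer cell line that the labels mark as the control. The labels do not say what Pep2-E3 stands for, whether it is a clone, or whether the 3 libraries per group were grown apart, so a p-value here reflects library-to-library spread that may be technical. Levels are FPKM, fragment counts scaled to exon length and library size, in bulk RNA, in which a change in every cell and a change in some of the cells cannot be told apart.

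Methylation is copied onto new DNA behind the replication fork by DNMT1, which the ubiquitin ligase UHRF1 brings to hemimethylated CpG sites, and it is set on unmethylated DNA mainly by DNMT3A and DNMT3B. HELLS, also called LSH, is a SNF2-type remodeller that works with CDCA7 to open nucleosomal DNA for methylation, and loss of HELLS, CDCA7 or DNMT3B function causes the ICF immunodeficiency syndrome in humans. TET enzymes oxidise methylcytosine with alpha-ketoglutarate as a co-substrate, after which the glycosylase TDG and base excision repair can restore cytosine. MBD2 binds methylated CpG and joins the NuRD deacetylase and remodelling complex in place of its relative MBD3.

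The RefSeq promoter windows of DNMT1, HELLS and MBD2 are shown (GRCh38.p14, gene strand). DNMT1 and HELLS were taken because, as background, they are genes whose transcription rises with S phase. Of 26 listed genes of that phase, 16 were higher in Pep2-E3, beside 14.6% of all tested genes. That list was chosen with earlier results of these data known. MBD2 was taken because it had the smallest difference of the 7 genes. Each window runs from 250 bases before to 50 bases after the start site. Capitals mark matches to the E2F-type words TTTCCCGC, TTTCGCGC, TTTGCCGC and TTTGGCGC, searched on both strands, with overlapping matches counted separately. The DNMT1 window is chr19:10194904-10195203 on the minus strand, the HELLS window chr10:94545538-94545837 on the plus strand, and the MBD2 window chr18:54224620-54224919 on the minus strand.
DNMT1: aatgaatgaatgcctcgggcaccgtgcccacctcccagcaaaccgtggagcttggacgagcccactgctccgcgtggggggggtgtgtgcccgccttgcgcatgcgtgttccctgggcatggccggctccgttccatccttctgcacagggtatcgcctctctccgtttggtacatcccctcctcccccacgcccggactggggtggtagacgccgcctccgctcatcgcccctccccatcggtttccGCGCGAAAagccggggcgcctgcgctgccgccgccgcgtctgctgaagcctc
HELLS: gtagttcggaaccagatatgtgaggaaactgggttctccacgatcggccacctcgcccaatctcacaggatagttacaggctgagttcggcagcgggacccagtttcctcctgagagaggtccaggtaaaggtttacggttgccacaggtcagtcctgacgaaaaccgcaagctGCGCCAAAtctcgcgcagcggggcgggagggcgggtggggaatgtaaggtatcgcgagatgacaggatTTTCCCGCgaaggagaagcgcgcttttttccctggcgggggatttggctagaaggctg
MBD2: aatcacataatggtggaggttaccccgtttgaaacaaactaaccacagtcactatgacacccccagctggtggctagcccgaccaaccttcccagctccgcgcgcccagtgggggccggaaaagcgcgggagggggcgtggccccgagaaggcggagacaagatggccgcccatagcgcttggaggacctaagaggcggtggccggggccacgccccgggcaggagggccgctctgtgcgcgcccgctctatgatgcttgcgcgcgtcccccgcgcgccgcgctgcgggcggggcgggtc
The DNMT1 window held 1 match, to TTTCGCGC on the opposite strand, which begins 2 bases before the start site. HELLS held 2, TTTGGCGC on the opposite strand 76 bases before the start site and TTTCCCGC 8 bases before it. These are RefSeq start sites. The last 50 bases of the HELLS window occur unbroken in 0 GENCODE transcripts of HELLS, against 3 for DNMT1 and 1 for MBD2. MBD2 held none, and neither did any of the other 11 windows of the 7 genes. At least 1 such word occurs in 3.31% of the 35116 windows of this length in the table. In CpG, the dinucleotide that these enzymes act on, the windows shown held 30 in DNMT1, 22 in HELLS and 32 in MBD2, against a median of 14 over all windows. Among those not shown, the DNMT3B window held 3, the TET2 windows 13 and 35, the TET3 windows 45 and 33, and the DNMT3A windows 18 to 46. The DNMT3B window, chr20:32779602-32779901 on the plus strand, lies inside the gene, which begins at 32762385. Its count therefore describes an internal start site, and the 5' end of DNMT3B had no window. A match describes the letters in the window and does not show that a factor binds there.

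The 6 libraries held 17154511 to 18206694 fragments, recovered from the FPKM values. Pep2-E3 replicate 1 stood apart: the mean chi-square per gene of its fragments against the other Pep2-E3 libraries was 14.8 and 19.3, against 4.07 between those 2 and 2.63 to 3.78 between MDA-MB-231 libraries. Its deviation from the other Pep2-E3 libraries moved with GC content, with a median of -0.34 on the log2(FPKM + 1) scale for genes under 40% GC and 0.11 for genes at 60% or more. All 11 markers of the line, such as VIM at 158 ± 5.82 FPKM in Pep2-E3 and 174 ± 4.89 FPKM in MDA-MB-231 (SD, n = 3 each), reached a mean of 0.5 FPKM, and by the test described next S100A4 (log2 fold change 0.83), KRT18 (0.50) and LGALS1 (0.21) were higher in Pep2-E3 and AXL (-0.34) lower. Of 15 luminal and epithelial markers 9 reached it: GATA3 (0.74) and KRT8 (0.36) were higher, CLDN4 (-0.65), CLDN3 (-0.62), ERBB3 (-0.58) and CLDN7 (-0.49) lower, and KRT19, EPCAM and ERBB2 did not pass. The oestrogen receptor gene ESR1 was at 0.0280 ± 0.00964 FPKM in Pep2-E3 and 0.0349 ± 0.0220 FPKM in MDA-MB-231, and 1 of 11 markers of immune, endothelial and fibroblast cells in the tables, COL1A1, reached a mean of 0.5 FPKM. The part of these markers in the results was not tested.

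None of the 7 genes passed the test between Pep2-E3 and MDA-MB-231, in a comparison in which 30.8% of the 14235 tested genes did (limma-trend on log2(FPKM + 1) for genes with a mean of at least 0.5 FPKM; called at an adjusted p under 0.05 by Benjamini-Hochberg over all of them). By unadjusted p under 0.05, 2 of the 7 passed, DNMT1 and DNMT3A, against 43.1% of tested genes. By limma-voom on the recovered fragments 1 passed, DNMT3A, against 33.5% of tested genes. After the values were adjusted for GC content and exon length 2 passed, DNMT1 and DNMT3B, against 37.9% of tested genes. In 3 of the 7 genes, DNMT1, DNMT3A and TET3, the groups did not overlap, against 48.8% of tested genes. The 95% intervals of the limma-voom folds of all 7 genes lay between 0.702 and 1.36, so by that fit none of them included a 1.5-fold difference in either direction. The median log2 fold change of the 7 genes was 0.02, beside -0.02 for all tested genes.

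**Figure D1:**
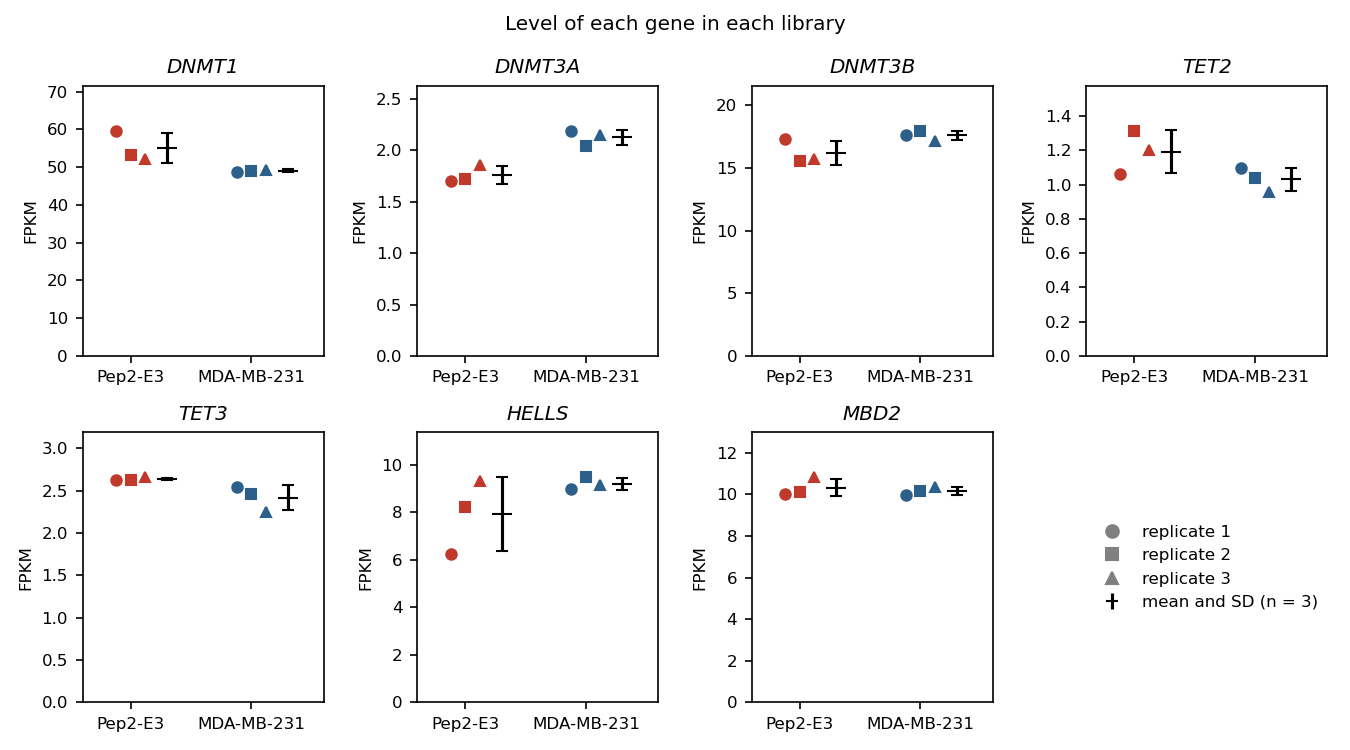
FPKM of the 7 genes in each library (points, with shapes for the replicates) with the mean and SD of 3 libraries beside them, each panel with its own axis from 0. The groups are apart in DNMT1, DNMT3A and TET3, and the HELLS libraries of Pep2-E3 run from 6.25 to 9.32 FPKM.

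DNMT1, the maintenance methyltransferase, was the most abundant of the 7 genes. It had 59.6, 53.3 and 52.1 FPKM in Pep2-E3 replicates 1, 2 and 3, against 48.6, 49.1 and 49.4 FPKM in MDA-MB-231 replicates 1, 2 and 3. All Pep2-E3 values lay above all MDA-MB-231 values, and Pep2-E3 replicate 1 was the highest. The means were 54.97 ± 4.02 FPKM in Pep2-E3 and 49.0 ± 0.391 FPKM in MDA-MB-231 (SD, n = 3 each), a ratio of 1.12. The log2 fold change was 0.16 ± 0.06 (SE; 95% interval 0.02 to 0.30), which did not pass after adjustment over all genes (limma adjusted p = 0.0813). With GC content and exon length adjusted for it was 0.18 and passed (limma adjusted p = 0.0111). It was 0.10 without Pep2-E3 replicate 1 and did not pass (limma adjusted p = 0.0726). The gene (ENSG00000130816) lies on chromosome 19, 10133345 to 10231286, in GRCh38, and 0.847% of its exon bases are shared with S1PR2 on the same strand.

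The de novo enzymes were both lower in mean and also did not pass. DNMT3A had 1.71, 1.72 and 1.86 FPKM in Pep2-E3, against 2.19, 2.04 and 2.15 FPKM in MDA-MB-231, in replicate order. The groups did not overlap, and the ratio of means was 0.828. Its log2 fold change was -0.18 ± 0.07 (SE; 95% interval -0.34 to -0.02; limma adjusted p = 0.0861). A pseudocount of 1 understates the change of a gene at this level, and limma-voom on its 352 to 478 fragments per library gave -0.27 ± 0.08 (SE), which passed (limma-voom adjusted p = 0.0276). DNMT3B, which is mutated in ICF syndrome, had 17.3, 15.6 and 15.7 FPKM in Pep2-E3, against 17.6, 17.9 and 17.2 FPKM in MDA-MB-231. Pep2-E3 replicate 1 overlapped the MDA-MB-231 values and the other Pep2-E3 libraries lay below them. The log2 fold change of DNMT3B was -0.11 ± 0.06 (SE; 95% interval -0.25 to 0.02; limma adjusted p = 0.171). Without Pep2-E3 replicate 1 it was -0.16 and passed (limma adjusted p = 0.0307), and it passed with the correction for GC content and length (-0.15; limma adjusted p = 0.0266). DNMT3A (ENSG00000119772) lies on chromosome 2, 25227855 to 25342590, and DNMT3B (ENSG00000088305) on chromosome 20, 32762385 to 32809356.

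The balance between the 3 methyltransferase genes was compared as shares of their summed FPKM, a measure chosen after their values were seen. DNMT1 made up 75.8%, 75.5% and 74.7% of the sum in Pep2-E3, against 71.0%, 71.1% and 71.9% in MDA-MB-231. The groups did not overlap and the means differed by 4.04 percentage points (exact permutation test, two-sided, p = 0.1, the smallest that 3 against 3 libraries allow). DNMT3B made up 22.2% ± 0.321 in Pep2-E3 and 25.6% ± 0.517 in MDA-MB-231, and DNMT3A 2.43% ± 0.250 in Pep2-E3 and 3.10% ± 0.125 in MDA-MB-231 (SD, n = 3 each; exact permutation p = 0.1 for each). The longest transcripts of the 3 genes have similar GC content, 55.4% for DNMT1, 53.7% for DNMT3A and 53.9% for DNMT3B. The shares were not computed from values adjusted for GC content, and its part in them was not tested. Between the de novo enzymes alone, DNMT3B took 90.2% ± 0.802 of their sum in Pep2-E3 and 89.2% ± 0.499 in MDA-MB-231, with overlapping groups (exact permutation test, two-sided, p = 0.2). DNMT3L, the catalytically inactive cofactor of the de novo enzymes in germ cells, was listed at 0 in all Pep2-E3 libraries and in MDA-MB-231 replicates 1 and 3, and at 0.0591 FPKM in MDA-MB-231 replicate 2.

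**Figure D2:**
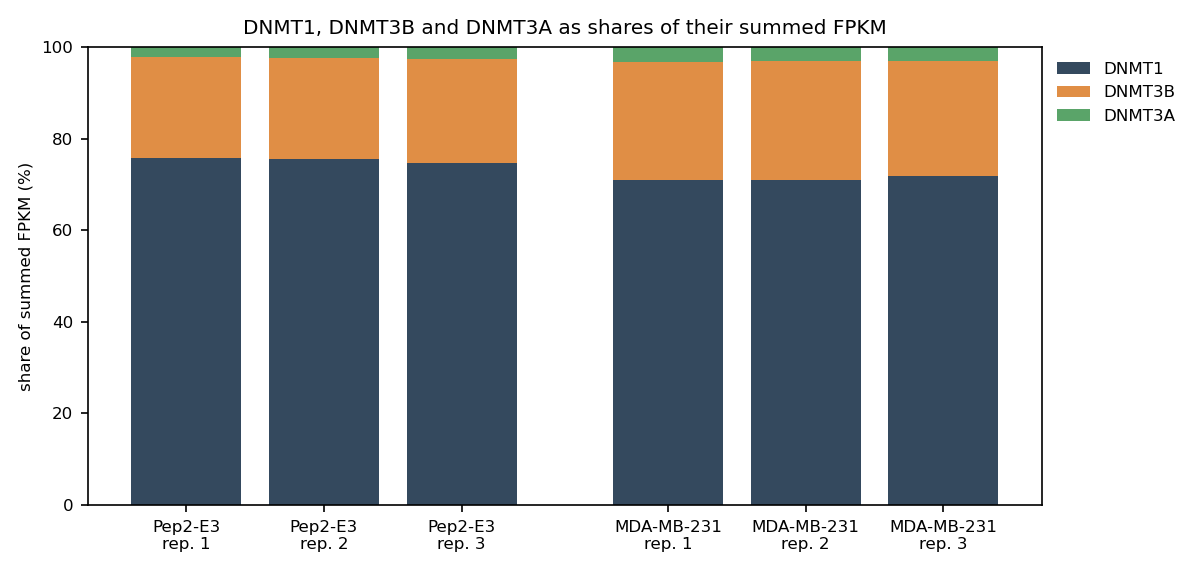
Share of DNMT1, DNMT3B and DNMT3A (stacked) in the summed FPKM of these 3 genes, 1 bar per library, Pep2-E3 left. The DNMT1 share is 74.7% to 75.8% in Pep2-E3 and 71.0% to 71.9% in MDA-MB-231.

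The TET genes were expressed at low levels. TET2, a tumour suppressor in blood cells, had 1.06, 1.31 and 1.2 FPKM in Pep2-E3, against 1.10, 1.04 and 0.959 FPKM in MDA-MB-231, which is 301, 374 and 339 fragments against 328, 311 and 277. Pep2-E3 replicate 1 fell within the MDA-MB-231 range and the other Pep2-E3 libraries lay above it. Its log2 fold change was 0.11 ± 0.08 (SE; 95% interval -0.09 to 0.31; limma adjusted p = 0.355). It was 0.23 ± 0.08 with GC content and length adjusted for (95% interval 0.04 to 0.42; limma adjusted p = 0.0648) and 0.21 ± 0.10 by limma-voom (adjusted p = 0.159), and passed in neither. TET3, the form that acts on the paternal genome in the mouse zygote, had 2.63, 2.63 and 2.66 FPKM in Pep2-E3, against 2.54, 2.46 and 2.25 FPKM in MDA-MB-231. The groups did not overlap, but the gap between their nearest values was small beside the MDA-MB-231 spread. The log2 fold change of TET3 was 0.09 ± 0.06 (SE; 95% interval -0.06 to 0.25; limma adjusted p = 0.324). TET3 took 68.9% ± 2.24 of the summed FPKM of TET2 and TET3 in Pep2-E3 and 70.1% ± 0.221 in MDA-MB-231 (SD, n = 3 each; exact permutation test, two-sided, p = 0.5). TET1, which carries a CpG-binding CXXC domain, averaged 0.0563 FPKM in Pep2-E3 and 0.0581 FPKM in MDA-MB-231 and was not tested. TET2 (ENSG00000168769) lies on chromosome 4, 105145875 to 105279816, and TET3 (ENSG00000187605) on chromosome 2, 73986404 to 74108176.

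HELLS had the highest coefficient of variation of the 7 genes in Pep2-E3, though not in MDA-MB-231. It had 6.25, 8.24 and 9.32 FPKM in Pep2-E3, against 8.98, 9.47 and 9.16 FPKM in MDA-MB-231. Pep2-E3 replicates 1 and 2 lay below all MDA-MB-231 values and replicate 3 lay among them. The coefficient of variation was 19.6% in Pep2-E3 and 2.70% in MDA-MB-231, and the log2 fold change was -0.21 ± 0.12 (SE; 95% interval -0.50 to 0.09; limma adjusted p = 0.253). HELLS has the lowest GC content of the 7 longest transcripts, 37.6%, and once GC content and length were adjusted for, its log2 fold change was -0.03 ± 0.05 (SE; limma adjusted p = 0.645). It was -0.06 without Pep2-E3 replicate 1. The gene (ENSG00000119969) lies on chromosome 10, 94501434 to 94613905, and 8.02% of the words of 50 bases in its longest transcript also occur in other genes, mostly AL138759.1, which overlaps it on the same strand.

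MBD2, the methyl reader, had the smallest difference. It had 10.04, 10.1 and 10.8 FPKM in Pep2-E3, against 9.95, 10.2 and 10.3 FPKM in MDA-MB-231. The groups overlapped, and the log2 fold change was 0.02 ± 0.05 (SE; 95% interval -0.10 to 0.15; limma adjusted p = 0.775). MBD2 (ENSG00000134046) lies on chromosome 18, 54151601 to 54224788. Per exon length, the order of the 7 genes was the same in both groups, DNMT1 highest, then DNMT3B, MBD2, HELLS, TET3, DNMT3A and TET2, and in each group the ranges of neighbours in this order did not overlap. The narrowest gap was in MDA-MB-231 between TET3, lowest at 2.25 FPKM, and DNMT3A, highest at 2.19 FPKM. Among all tested genes, DNMT1 stood at percentile 94.7 of mean FPKM, DNMT3B at 80.1 and TET2 at 16.3.

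The deviations of Pep2-E3 replicate 1 in these genes followed GC content closely, with DNMT3A below the order it would give. Relative to the mean of the other Pep2-E3 libraries on the log2(FPKM + 1) scale, that library was at 0.17 for DNMT1 and 0.13 for DNMT3B, at -0.005 for TET3 and -0.04 for DNMT3A, and at -0.06 for MBD2, -0.13 for TET2 and -0.43 for HELLS. Over the 7 genes Pearson's r between GC content and this deviation was 0.911, a description of points that share 1 library. Over all tested genes it was 0.489. After the correction, the deviation of HELLS in that library was -0.09, of DNMT1 0.08, of DNMT3B 0.07, of TET2 -0.08 and of MBD2 -0.05, all nearer to 0 than before, while those of DNMT3A (-0.14) and TET3 (-0.10) lay farther from 0. In the MDA-MB-231 libraries the correlation with GC content over all tested genes was between -0.089 and 0.093.

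**Figure D3:**
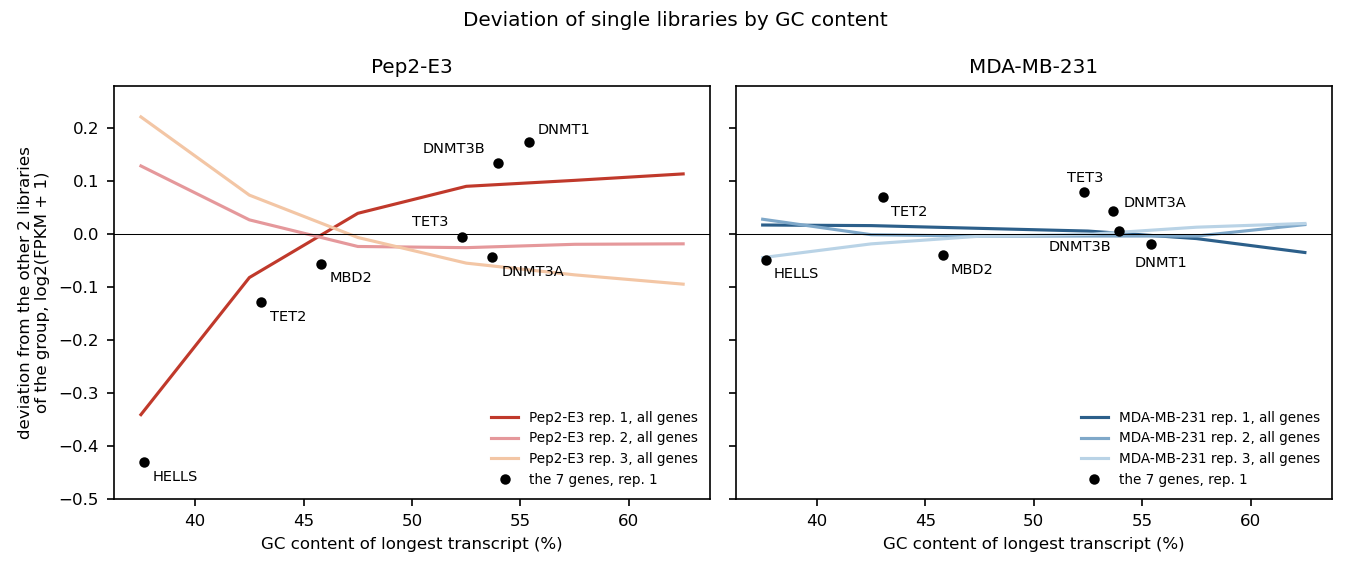
How far each library lay from the other 2 of its group, on the log2(FPKM + 1) scale, against GC content of the longest transcript. Lines join medians of all tested genes in GC bins 5 points wide (open-ended at both sides and drawn at bin centres), and points are the 7 genes in replicate 1. In Pep2-E3 replicate 1 the line climbs from -0.34 to 0.11, with HELLS lowest at -0.43 and DNMT1 highest at 0.17.

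Around DNMT1, 1 of 10 listed maintenance partners, UHRF1, was higher in Pep2-E3 and 0 were lower, beside 30.8% of all tested genes called, with a median log2 fold change of 0.02. Without Pep2-E3 replicate 1 the counts were 2 higher and 1 lower, beside 2302 higher and 2555 lower of 14320 tested genes. UHRF1 averaged 42.7 ± 1.79 FPKM in Pep2-E3 and 29.4 ± 1.40 FPKM in MDA-MB-231 (SD, n = 3 each), with a log2 fold change of 0.53 ± 0.06 (SE; limma adjusted p = 0.00140). The log2 ratio of UHRF1 to DNMT1 within each library, chosen after the values were seen, was -0.36 ± 0.04 in Pep2-E3 and -0.74 ± 0.08 in MDA-MB-231 (SD, n = 3 each). The groups did not overlap (exact permutation test, two-sided, p = 0.1, the smallest possible). Of the other partners, the HELLS partner CDCA7 had a log2 fold change of 0.08 ± 0.09 (SE; limma adjusted p = 0.551). The replication clamp PCNA averaged 184 ± 2.196 FPKM in Pep2-E3 and 182 ± 11.8 FPKM in MDA-MB-231 (limma adjusted p = 0.779). LIG1, a ligase whose methylated form UHRF1 binds, had a log2 fold change of -0.19 ± 0.08 (SE; limma adjusted p = 0.0983).

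Of 26 listed genes of S phase and DNA replication, 16 were higher and 0 lower, beside 14.6% higher and 16.2% lower among all tested genes, and the median log2 fold change was 0.24. The higher ones include the cyclin gene CCNE1 at 0.66 ± 0.06, the helicase accessory gene GINS2 at 0.64 ± 0.07, the helicase subunit gene MCM6 at 0.47 ± 0.06 and the licensing factor gene CDT1 at 0.30 ± 0.05 (log2 fold change ± SE; limma adjusted p between 0.000868 and 0.00753). The other 10 did not pass, and some of them had fold changes under 0, such as LIG1 (-0.19 ± 0.08). The list was chosen with earlier results of these data known. Without Pep2-E3 replicate 1, 16 were higher and 1 lower, beside 2302 higher and 2555 lower of 14320 tested genes. With a term for the replicate number (the replicate block), 9 were higher and 0 lower, beside 1364 higher and 1602 lower of 14235 tested genes. In the mitosis list 1 of 16 was higher, the cyclin gene CCNB1, and 0 were lower, beside the same 14.6% and 16.2%, with a median of -0.01. DNMT1 and HELLS, at 0.16 and -0.21, both had log2 fold changes under the median of the S-phase list, and whether either differs from that list was not tested.

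**Figure D4:**
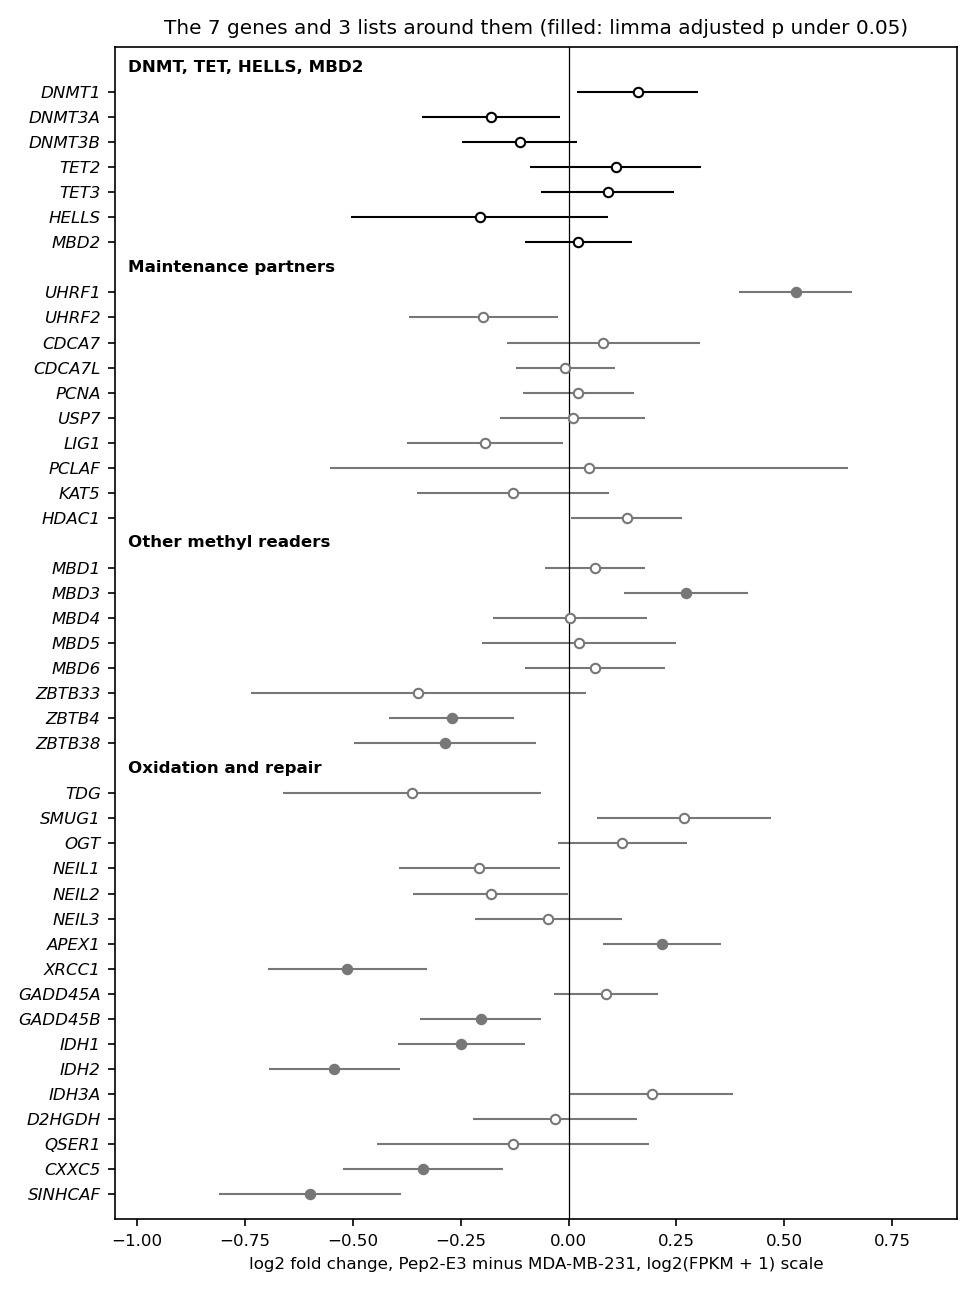
Log2 fold change, Pep2-E3 minus MDA-MB-231, with its 95% interval for the 7 genes and tested genes of 3 lists around them (filled where limma adjusted p is under 0.05). None of the 7 is filled, UHRF1 stands at 0.53, and IDH2, XRCC1 and SINHCAF stand between -0.51 and -0.60.

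On the demethylation side, 2 of 19 tested genes of oxidation, repair and alpha-ketoglutarate supply were higher and 6 lower, beside 14.6% higher and 16.2% lower among all tested genes, with a median log2 fold change of -0.13. IDH2, the mitochondrial enzyme that makes alpha-ketoglutarate from isocitrate, fell to 6.08 ± 0.305 FPKM in Pep2-E3, against 9.31 ± 0.542 FPKM in MDA-MB-231 (SD, n = 3 each; limma adjusted p = 0.00191). Its cytosolic form IDH1 was also lower (log2 fold change -0.25 ± 0.06, SE; limma adjusted p = 0.0241). The repair scaffold XRCC1 fell (-0.51 ± 0.08), as did SINHCAF, a subunit of the SIN3-HDAC complex (-0.60 ± 0.09), CXXC5, a CXXC-domain protein (-0.34 ± 0.08), and GADD45B, a stress-response gene (-0.20 ± 0.06). The abasic endonuclease gene APEX1 (0.22 ± 0.06) was among those that rose. TDG, which excises oxidised methylcytosine, averaged 7.56 ± 1.47 FPKM in Pep2-E3 and 9.89 ± 0.442 FPKM in MDA-MB-231 and did not pass (limma adjusted p = 0.0692). The calls of IDH1, APEX1, GADD45B and CXXC5 each needed particular libraries: their highest limma adjusted p with 1 library left out was 0.0920 for IDH1 and 0.105 for APEX1 (both without MDA-MB-231 replicate 2), and 0.129 for GADD45B and 0.0672 for CXXC5 (both without MDA-MB-231 replicate 3). Those of IDH2, XRCC1 and SINHCAF held without any 1 library (highest 0.0136, 0.0242 and 0.0212). With GC content and length adjusted for, 5 of the 19 were higher and 8 lower, beside 37.9% of all tested genes called, with a median of -0.02.

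Among 11 methyl readers 2 were higher and 2 lower, a share near that of all tested genes, with a median log2 fold change of 0.01. With upper-quartile scaling 2 were higher and 0 lower, beside 2204 higher and 1764 lower of 14241 tested genes. MBD3, the NuRD subunit that excludes MBD2 from the same complex and binds methylated CpG weakly in mammals, rose to 7.73 ± 0.369 FPKM in Pep2-E3, against 6.23 ± 0.282 FPKM in MDA-MB-231 (SD, n = 3 each; limma adjusted p = 0.0159). The zinc finger readers ZBTB4 (-0.27 ± 0.06, log2 fold change ± SE) and ZBTB38 (-0.29 ± 0.09) fell, with limma adjusted p of 0.0174 and 0.0492. ZBTB38 no longer passed without Pep2-E3 replicate 1 (limma adjusted p = 0.0818), Pep2-E3 replicate 2 (0.129) or MDA-MB-231 replicate 1, 2 or 3 (0.152, 0.118 and 0.0904), nor with GC content and length adjusted for (0.101). ZBTB4 did not pass without Pep2-E3 replicate 2 (0.0546) or MDA-MB-231 replicate 1 or 3 (0.0702 and 0.0616), nor MBD3 without MDA-MB-231 replicate 1 or 2 (limma adjusted p = 0.0660 and 0.0559). The reader genes MBD1 (0.06 ± 0.05) and MBD4 (0.004 ± 0.07) did not pass. Of 13 NuRD genes, 1 was higher, MBD3, and 5 were lower, beside 14.6% higher and 16.2% lower among all tested genes. The lower NuRD genes include GATAD2B (-0.66 ± 0.10), MTA1 (-0.56 ± 0.08) and the histone chaperone gene RBBP4 (-0.32 ± 0.05). The median of the 13 was -0.07 and became 0.03 with GC content and length adjusted for. CHD4, the remodeller subunit of that complex, was listed at only 0.721 ± 0.0264 FPKM in Pep2-E3 and 0.729 ± 0.0173 FPKM in MDA-MB-231, an unusually low level whose source was not tested.

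Of 12 tested genes for partners of the de novo enzymes and for the histone marks that guide them, 1 was higher and 4 lower, beside 30.8% of all tested genes called. With GC content and length adjusted for, the counts were 3 and 4, beside 37.9% of all tested genes called, and the median log2 fold change was -0.03 in place of -0.11. With upper-quartile scaling they were 1 and 2, beside 2204 higher and 1764 lower of 14241 tested genes. EZH2, the H3K27 methyltransferase, was the higher one (0.23 ± 0.06), and the lower ones were the CXXC-domain demethylase gene KDM2B (-0.35 ± 0.07), the imprint-protecting zinc finger gene ZNF445 (-0.32 ± 0.07), the H3K9 methyltransferase gene SETDB1 (-0.30 ± 0.08) and the demethylase gene KDM1A (-0.24 ± 0.07). In the methyl donor cycle 3 of 11 genes were higher and 2 lower, beside 14.6% higher and 16.2% lower among all tested genes. Upper-quartile scaling gave 2 higher and 0 lower in this cycle, beside 2204 higher and 1764 lower of 14241 tested genes. MAT2A, which makes S-adenosylmethionine, the substrate of all DNMT enzymes, rose to 57.51 ± 2.42 FPKM in Pep2-E3, against 45.3 ± 2.84 FPKM in MDA-MB-231 (SD, n = 3 each; limma adjusted p = 0.00767). AHCY, which clears their product S-adenosylhomocysteine, rose (0.22 ± 0.07; limma adjusted p = 0.143 without MDA-MB-231 replicate 2), as did the methionine synthase reductase gene MTRR (0.30 ± 0.05). Of 16 SNF2-type and related remodeller genes around HELLS, 1 was higher and 6 lower, beside 14.6% higher and 16.2% lower among all tested genes. SMARCA1, an ISWI-type remodeller, rose to 14.2 ± 0.471 FPKM in Pep2-E3, against 5.82 ± 0.175 FPKM in MDA-MB-231 (limma adjusted p = 0.000120). RAD54L (-0.59 ± 0.10), HLTF (-0.59 ± 0.11), BTAF1 (-0.40 ± 0.09) and SMARCA2 (-0.36 ± 0.06) fell. With GC content and length adjusted for, 2 of the 16 were higher and 4 lower, beside 37.9% of all tested genes called. The median log2 fold change of the 16 was then -0.04 in place of -0.17.

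Of 19 tested genes listed as imprinted, 3 were higher and 6 lower, beside 14.6% and 16.2% of all tested genes, with a median log2 fold change of -0.01. In imprinting, DNA methylation sets expression from 1 parental copy, for some genes only in some tissues. Which copies these cells express was not measured. MEST fell to 1.31 ± 0.231 FPKM in Pep2-E3, against 3.79 ± 0.251 FPKM in MDA-MB-231, and PEG10 to 12.2 ± 0.670 FPKM in Pep2-E3, against 18.4 ± 0.520 FPKM in MDA-MB-231 (SD, n = 3 each; limma adjusted p = 0.000816 and 0.00133). UBE3A (-0.90 ± 0.10, log2 fold change ± SE) and CDKN1C (-0.53 ± 0.10) also fell. PHLDA2 (0.54 ± 0.07), IGF2R (0.42 ± 0.06) and FAM50B (0.42 ± 0.06) rose. SGCE, in the same list, did not pass (0.03 ± 0.05; limma adjusted p = 0.688). Of 40 germline genes listed as repressed by promoter methylation in somatic cells, 23 were in the tables and 5 reached 0.5 FPKM. Of these, SPANXB1 and MAGEA6 rose and MAGEA3, XAGE1B and TUBA3D did not pass. MAGEA6 reached the filter only through its level in Pep2-E3, so the filter favours such a gene and nothing is read from the count. SPANXB1 averaged 596 ± 21.3 FPKM in Pep2-E3 and 43.1 ± 2.97 FPKM in MDA-MB-231, and MAGEA6 11.3 ± 0.812 FPKM in Pep2-E3 and 0.438 ± 0.104 FPKM in MDA-MB-231 (SD, n = 3 each; limma adjusted p = 1.51e-06 and 1.06e-05). Both belong to families of near-identical copies, so which copy the reads came from is uncertain. DNA methylation itself was not measured here.

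Among 143 or 144 genes of these lists with a mean of at least 2 FPKM, those most like each of the 7 were found by the root mean square difference of log2(FPKM + 1) over the 6 libraries, after subtracting the MDA-MB-231 mean. HDAC1 (0.0343) and CDC20 (0.0379) were nearest to DNMT1, AHCYL1 (0.0277) and KDM1B (0.0352) to DNMT3A, and NSD2 (0.0280) and NSD1 (0.0429) to DNMT3B. OGT (0.0490) and TET3 (0.0501) were nearest to TET2, and KIF20A (0.0491) and SGCE (0.0554) to TET3. QSER1 (0.0676) and CHD1 (0.0743) were nearest to HELLS, and SGCE (0.0423) and TOP2A (0.0554) to MBD2. Like HELLS, QSER1 and CHD1 were lowest in Pep2-E3 replicate 1 (8.98 and 9.06 FPKM), the library whose deviations moved with GC content. A pseudocount of 1 shrinks differences of genes at low levels, such as DNMT3A, so the distances also depend on level. They are a description, and shared regulation was not tested.

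**Figure D5:**
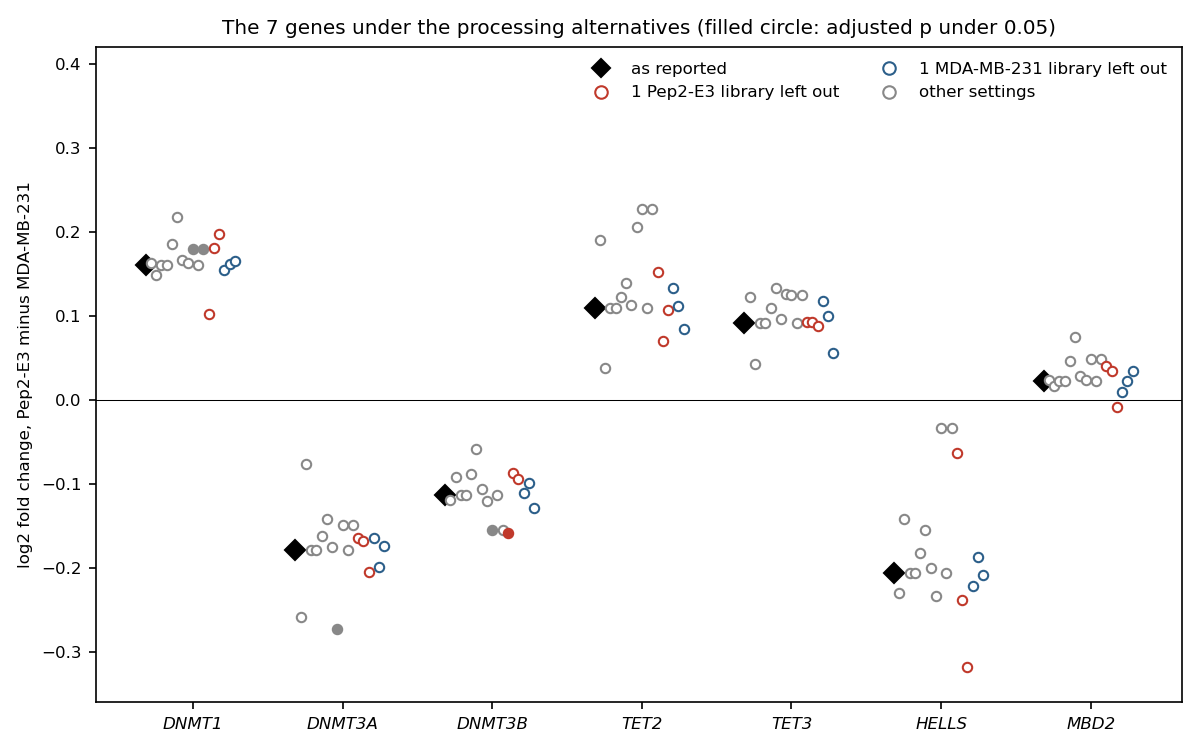
Log2 fold change of the 7 genes, Pep2-E3 minus MDA-MB-231, as reported (diamonds) and under 17 processing alternatives (circles, filled where the adjusted p is under 0.05). The values of 6 genes keep their sign under all 17, and MBD2 reaches -0.00843 in 1 of them.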

How the data were processed

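Per the file headers, the authors deposited FPKM values for each library. Per the submitters' processing notes the tools were HISAT2 2, Bowtie2 2.2.3 and HTSeq 0.6.0, and the notes name mm8, a mouse build, whereas the identifiers are human. Per the labels' protocols, 2 ug of RNA per sample entered a NEBNext Ultra library kit. All 30099 identifiers matched GENCODE release 29. FPKM times union exon length and library total gave whole fragments, within 0.001, for 100% of values. Counting precision follows from the fragments given.

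Because the unit is FPKM, the test was limma-trend (limma 3.58.1, R 4.3.3) on log2(FPKM + 1), with group as the only term, for genes with a mean of at least 0.5 FPKM. Alternatives were pseudocounts of 0.1 and 5, other filters and scalings, limma-voom, a GC and length correction (splines with 5 degrees of freedom), a replicate block and leaving out each library. The 7 genes and the lists were chosen with earlier results of these data known. Named from each list were up to 4 called genes in each direction with the smallest p, and in the lists of maintenance, readers and oxidation any tested gene; some genes of these lists are counted but not reported by name here. Marker genes, CHD4 and the germline genes that did not pass were named after their values were seen. The share of DNMT1 and its alternatives were chosen after seeing the data.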

Additional observations from a re-analysis of the deposited data

How the results depend on the processing

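The number of the 7 genes that passed was 0 as reported, 1 with limma-voom on the recovered fragments (DNMT3A), 2 with the GC and length correction (DNMT1 and DNMT3B), 1 with the replicate block together with that correction (DNMT1), and between 0 and 1 when single libraries were left out, the 1 being DNMT3B without Pep2-E3 replicate 1. It was 0 under the other 8 settings that kept all libraries. Over 17 alternatives the log2 fold change ranged from 0.10 to 0.22 for DNMT1, -0.27 to -0.08 for DNMT3A, -0.16 to -0.06 for DNMT3B, 0.04 to 0.23 for TET2, 0.04 to 0.13 for TET3 and -0.32 to -0.03 for HELLS. MBD2 ranged from -0.00843 to 0.08, and from -0.00843 to 0.0406 when single libraries were left out; it changed sign without Pep2-E3 replicate 3 (-0.00843; adjusted p = 0.916). The number of called genes was 4383 as reported and 2474 to 4857 when single libraries were left out. It was 2699, 2474 and 2893 without MDA-MB-231 replicates 1, 2 and 3 and 2991 without Pep2-E3 replicate 2. The difference in DNMT1 share of 4.04 percentage points was 3.05 points in fragments not scaled to length and 3.804 to 4.35 points when single libraries were left out. The difference in DNMT3B share of the de novo pair, 0.961 points as reported, was 1.85 points in fragments. Differences were 0.537 to 1.33 points for that share and -2.33 to -0.0856 points for the TET3 share when single libraries were left out. The replicate block gave 2966 called genes and 0 of the 7. Same-numbered libraries had correlations of deviations from their group means of -0.042, 0.038 and -0.061. These values do not show that the numbers pair libraries. They cannot exclude it either, since Pep2-E3 replicate 1 stood apart and weighs on the deviations. The causes were not tested.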
